A study of Mus musculus with 4 samples.

Results

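The T-box transcription factors that mark position and lineage in embryonic mesenchyme were followed in primary mouse embryonic fibroblasts, the connective-tissue cells cultured from minced embryos. The members are the 9 genes Tbx1, Tbx2, Tbx3, Tbx4, Tbx5, Tbx15, Tbx18, Tbx20 and Tbx22, listed by symbol and matched to 9 of the 54532 gene IDs of the raw count table. The RNA came from 4 genotypes with 1 library each, namely WT, Zfp871-/-, Trp53-/- and the double null, Trp53-/-; Zfp871-/-. All cells were of strain C57BL/6, came from embryos of 12.5 to 13.5 days and were proliferating cells of passage 4. According to the series text, the double null and Trp53-/- cells came from crosses of mice heterozygous for both genes, and Zfp871-/- cells from crosses of Zfp871 heterozygotes. WT cells came from either kind of cross, and which gave the sequenced WT library, how the alleles were built and whether embryos were pooled is not stated in the labels.

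T-box proteins share a DNA-binding domain and act as activators or repressors in fields of the embryo. Tbx5 marks the forelimb and heart field and Tbx4 the hindlimb and lung mesenchyme. Tbx2 and Tbx3 are repressors that act in limb, heart and breast and are known to hold down cell-cycle inhibitor genes. Tbx15 and Tbx18 pattern dermis, shoulder girdle, somites, epicardium and ureter. Tbx1 acts in the pharyngeal arches, Tbx20 in the heart and Tbx22 in the palate. Because fibroblasts keep such programs in culture, these genes can tell which body regions a culture holds. In bulk RNA, fewer cells of a type and less RNA per cell cannot be told apart.

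Some sequence features of the members bear on how the counts can be read. Closely related genes could share reads, so coding sequences of the 9 members were compared in all 36 pairs (GENCODE M21 transcripts, GRCm38/mm10). The longest identical run was 23 bases, found in the sister genes Tbx15 and Tbx18 and in the sister genes Tbx4 and Tbx5. These runs are shown because they are the longest identical stretches among the coding sequences compared. Exon bases outside the coding sequences and other genes were not compared.
Tbx15 and Tbx18: catagctctaagtggatggtggc
Tbx4 and Tbx5: cagctgaaaattgagaacaaccc
The next longest runs had 21 bases, in Tbx1 and Tbx5 and in Tbx18 and Tbx20. Read length is not stated in the labels.

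The RefSeq promoter table (GRCm38.p6, 250 bases before to 50 after a start site) held 8 windows for 5 members: Tbx1, Tbx4, Tbx18, Tbx20 and Tbx22. The windows of 3 members are shown because their genes stood at different levels here: Tbx18 had at least 365 counts in every library, Tbx4 differed most between libraries, and Tbx22 had no count. Each is printed 5′ to 3′ on the strand of its gene, and capitals mark CpG, the dinucleotide that carries DNA methylation.
Tbx18, chr9:87731211-87731510, minus strand: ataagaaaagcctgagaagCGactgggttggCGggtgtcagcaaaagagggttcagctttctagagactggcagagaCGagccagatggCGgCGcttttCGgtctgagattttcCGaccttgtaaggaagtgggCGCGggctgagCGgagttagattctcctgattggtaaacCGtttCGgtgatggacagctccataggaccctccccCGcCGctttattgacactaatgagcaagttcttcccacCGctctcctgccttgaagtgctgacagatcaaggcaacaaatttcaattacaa
Tbx4, chr11:85896515-85896814, plus strand: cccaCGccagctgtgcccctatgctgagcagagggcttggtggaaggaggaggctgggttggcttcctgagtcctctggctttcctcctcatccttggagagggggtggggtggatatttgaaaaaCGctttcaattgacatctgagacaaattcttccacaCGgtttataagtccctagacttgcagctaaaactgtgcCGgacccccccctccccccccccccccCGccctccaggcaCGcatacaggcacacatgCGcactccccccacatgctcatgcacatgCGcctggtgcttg
Tbx22, chrX:107667714-107668013, plus strand: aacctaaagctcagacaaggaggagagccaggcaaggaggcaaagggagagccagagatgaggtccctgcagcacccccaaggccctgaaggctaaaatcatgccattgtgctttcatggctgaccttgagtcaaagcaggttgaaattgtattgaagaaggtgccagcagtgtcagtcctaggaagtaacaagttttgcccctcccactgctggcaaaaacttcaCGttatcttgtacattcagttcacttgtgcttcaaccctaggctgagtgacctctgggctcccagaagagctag
The Tbx18 window held 15 CpG, that of Tbx4 held 8 and that of Tbx22 held 1, where the median of 32817 windows of the same length was 7. The other windows of Tbx22 held 2 and 1, the window of Tbx20 held 26 and those of Tbx1 held 26 and 16. The Tbx4 window belongs to a start site 10343 bases inside the GENCODE gene. The letters GGTGTG, the core of the sequence T-box proteins bind, were searched on both strands and were in none of the 8 windows, against 19.1% of all windows.

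The libraries held 19303167 to 22324599 counts. As each genotype is 1 library, a ratio between a pair of them has no replicate check and compares only those libraries. Levels are CPM scaled with TMM (normalized CPM), ratios are log2 ratios of these with a prior count of 2, and intervals are exact (Clopper-Pearson) 95% intervals that cover counting error only. Tests used 1 additive model over all 4 libraries (Trp53 status plus Zfp871 status), fitted with the quasi-likelihood method of edgeR, with Benjamini-Hochberg adjustment at 0.05 over 13306 genes. It takes 2 libraries per level of each gene and has 1 residual degree of freedom, the departure of the 4 libraries from additivity. Its p-values rest on that departure, partly pooled over genes, and not on a spread between cultures of a genotype. Whatever cross or litter the Trp53-null libraries have in common cannot be told apart from Trp53 loss. In the libraries labelled null the targeted genes were lower but not at 0, with 2383 and 2413 Trp53 counts against 1233 and 1382, and with 660 and 784 Zfp871 counts against 327 and 307. All 12 fibroblast markers had counts in every library. Of 8 heart muscle markers, Myh6, Myl7, Actc1 and Nppa had 0 counts in every library, Myh7, Tnni3 and Nkx2-5 had at most 10, and Tnnt2 had 84 to 417. Of 9 skeletal muscle markers, Myod1, Myf5, Myog and Myh8 had 0 counts in every library, Pax7, Myh3, Actn2 and Ttn had at most 22, and Des had 63, 157, 21 and 46 in WT, Zfp871-/-, Trp53-/- and the double null and fell with Trp53 loss (edgeR quasi-likelihood test, Benjamini-Hochberg adjusted p 0.0402).

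The members covered a wide range of levels per exon length. In the authors' deposited values, read as FPKM, Tbx15 stood at 31.2 to 31.8 and was far above the other members. Tbx18 followed at 4.11 to 6.49 FPKM and Tbx3 at 1.55 to 4.26 FPKM, with Tbx18 above Tbx3 in all libraries but Zfp871-/-. Tbx5 (1.06 to 3.88 FPKM), Tbx2 (0.239 to 2.46), Tbx4 (0.0632 to 2.99) and Tbx1 (0.300 to 1.07) had overlapping ranges. Tbx5 was above Tbx4 in each library, and the other orders among these 4 genes differed between libraries. Tbx20 lay at 0.0190 to 0.120 FPKM and Tbx22 was listed at 0. The spread between libraries differed as much as the level, from 1.02-fold between the highest and lowest FPKM for Tbx15 to 47.3-fold for Tbx4.

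**Figure D1:**
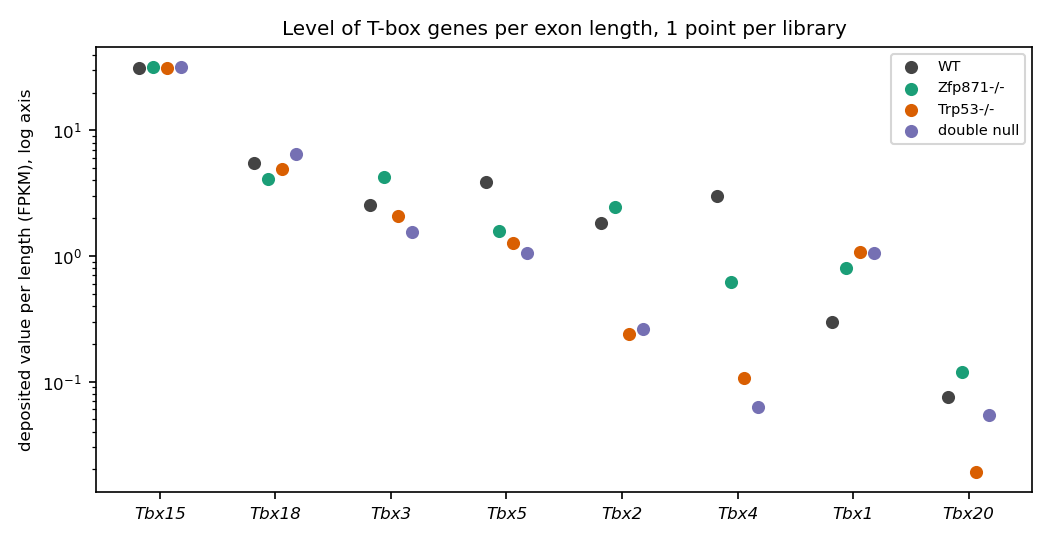
Deposited values per exon length (FPKM, log axis) of the 8 T-box genes with a count, ordered by their mean, with 1 point per library. The points of Tbx15 lie on each other near 31 to 32, while those of Tbx4 run from 0.0632 to 2.99.

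Of the 9 members, 7 passed the filter on low counts (at least 1 CPM in at least 2 libraries) and were tested. Tbx20 and Tbx22 did not. Tbx2 and Tbx4 reached 1 CPM only in WT and Zfp871-/-, so each could pass only through the libraries with intact Trp53. With Trp53 loss 2 members fell, Tbx2 and Tbx4, and 0 rose, where 4.28% of all genes tested fell and 4.96% rose. The median log2 ratio of the 7 tested members was -0.28 in Trp53-/- against WT and -0.58 in the double null against Zfp871-/-, beside 0.00 for all genes tested in each pair.

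Tbx2, the repressor gene that neighbours Tbx4 on chromosome 11 (ENSMUSG00000000093, 85832551 to 85841948, plus strand, GRCm38/mm10), was nearly lost where Trp53 was absent. WT gave 125 Tbx2 counts and Zfp871-/- gave 168, against 19 from Trp53-/- and 22 from the double null. Both libraries with intact Trp53 were high and both Trp53-null libraries were low. Tbx2 was at least 2-fold lower with Trp53 loss in both backgrounds, as were 4.58% of all genes tested. The share of all genes that divide by Trp53 status without a fold limit was not counted. The normalized CPM was 6.62 and 8.91 with intact Trp53 (WT, then Zfp871-/-) and 0.869 and 0.947 without it (Trp53-/-, then the double null). In the edgeR quasi-likelihood test Tbx2 fell by 3.08 on the log2 scale with Trp53 loss (SE 0.316, Benjamini-Hochberg adjusted p 0.0225). The log2 ratio was -2.80 (-3.71 to -2.23) in Trp53-/- against WT and -3.11 (-3.95 to -2.59) in the double null against Zfp871-/-, that is 6.95-fold and 8.64-fold lower. Between both Trp53-null libraries Tbx2 did not differ beyond counting error, with a log2 ratio of 0.11 (-0.83 to 1.09). Zfp871-/- was slightly above WT, with a log2 ratio of 0.42 (0.09 to 0.77).

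Tbx4, the hindlimb and lung factor (ENSMUSG00000000094, chromosome 11, 85886422 to 85916097, plus strand), was highest in WT by a wide margin. WT gave 193 Tbx4 counts, Zfp871-/- gave 40, Trp53-/- gave 8 and the double null 5. WT was the highest library, Zfp871-/- was intermediate, and both Trp53-null libraries were close to the limit of detection. In the edgeR quasi-likelihood test Tbx4 fell by 4.17 on the log2 scale with Trp53 loss (SE 0.518, Benjamini-Hochberg adjusted p 0.0281). The pairwise log2 ratio was -4.48 (-6.04 to -3.80) in Trp53-/- against WT and -2.83 (-5.001 to -1.96) in the double null against Zfp871-/-. In Zfp871-/- against WT it was -2.22 (-2.80 to -1.77), 4.65-fold lower. Among the Trp53-null libraries 8 and 5 counts could not be told apart, with a log2 ratio of -0.57 (-2.72 to 1.03). The Zfp871 term of the same edgeR quasi-likelihood test gave -1.85 (SE 0.493), with an unadjusted p of 0.0174 and a Benjamini-Hochberg adjusted p of 0.874.

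Tbx2 and Tbx4 lie 44.5 kb apart on the same strand, and Trp53 lies on the same chromosome, 16.2 Mb from Tbx2. The 6 other tested genes within 500 kb of Tbx2 did not share the low level. Bcas3, the nearest of them, had 385, 405, 317 and 409 counts in WT, Zfp871-/-, Trp53-/- and the double null, and log2 ratios of -0.49 and -0.29 in the pairs of Trp53 loss. Ppm1d, a phosphatase gene known as a p53 target, had -0.56 and -0.40, the lowest of the 6. Brip1, a DNA repair helicase gene on the other side, had 1.56 and 0.96 and rose in the edgeR quasi-likelihood test (Benjamini-Hochberg adjusted p 0.0432). Of the 1062 genes tested on chromosome 11, 35 fell with Trp53 loss (3.3%), beside 4.28% of all genes. The transcript 2610027K06Rik, which starts 328 bases from Tbx2 on the opposite strand, had 3, 2, 1 and 0 counts.

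**Figure D2:**
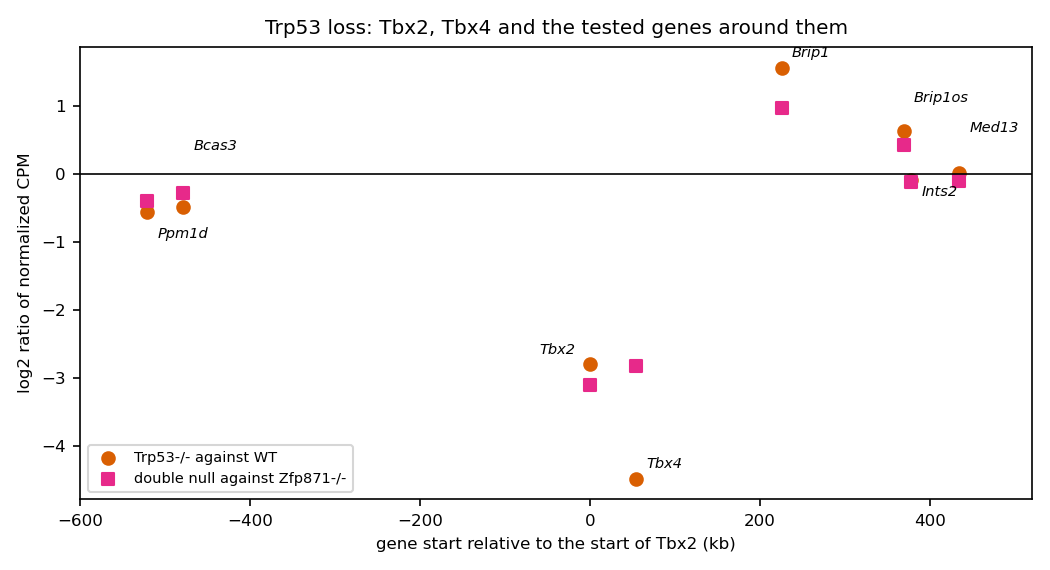
Log2 ratio of normalized CPM with Trp53 loss for Tbx2, Tbx4 and the 6 other tested genes within 500 kb, against the distance of the gene start from that of Tbx2 (kb), with circles for Trp53-/- against WT and squares for the double null against Zfp871-/-. Tbx2 and Tbx4 lie between -2.80 and -4.48, and the other genes between -0.56 and 1.56.

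Tbx3 and Tbx5 form the other neighbouring couple, 147.9 kb apart on chromosome 5, and neither was called for Trp53 or for Zfp871 loss. Tbx3 (119670669 to 119684724, plus strand), the sister repressor of Tbx2, gave 319 counts from WT, 531 from Zfp871-/-, 304 from Trp53-/- and 238 from the double null. Zfp871-/- was the high library, and the double null was the low one. Zfp871 loss gave a log2 ratio of 0.73 (0.53 to 0.94) in cells with Trp53 and of -0.44 (-0.69 to -0.19) in cells lacking it, an opposite direction that 9.51% of all genes tested share. Trp53 loss gave -0.28 (-0.51 to -0.05) in the presence of Zfp871 and -1.45 (-1.69 to -1.24) in its absence. The Trp53 term of the edgeR quasi-likelihood test was -0.87 (SE 0.329, Benjamini-Hochberg adjusted p 0.167). The antisense gene Tbx3os1, which shares 115 exon bases with Tbx3, had 2, 11, 1 and 2 counts. No strand setting is stated, so reads of the shared bases cannot be told apart.

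Tbx5, the forelimb and heart factor (119832668 to 119885219, plus strand), set WT apart from the other 3 libraries. WT gave 344 Tbx5 counts, and Zfp871-/-, Trp53-/- and the double null gave 140, 131 and 115. Against WT the log2 ratios of these 3 libraries were -1.28 (-1.59 to -1.01), -1.59 (-1.91 to -1.31) and -1.86 (-2.20 to -1.57). The 3 comparisons share the WT library. Among the other libraries the differences were small: the double null did not differ from Trp53-/- beyond counting error (-0.27, -0.65 to 0.10) and was 1.49-fold lower than Zfp871-/-. The Trp53 term of the edgeR quasi-likelihood test was -1.11 (SE 0.325, Benjamini-Hochberg adjusted p 0.111) and the Zfp871 term -0.80 (SE 0.324, adjusted p 0.874). With no filter on low counts Tbx5 fell with Trp53 loss in the edgeR quasi-likelihood test, at a Benjamini-Hochberg adjusted p of 0.0332.

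**Figure D3:**
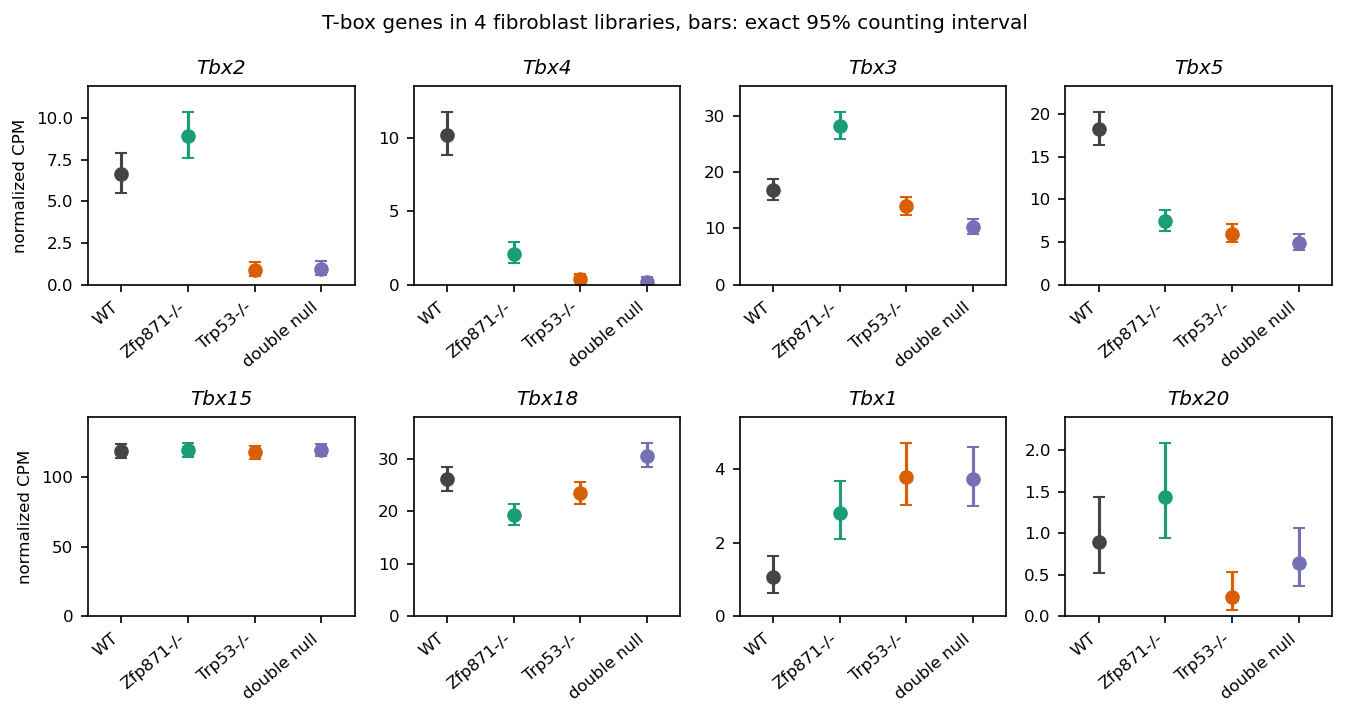
Normalized CPM of the 8 T-box genes with a count in each of the 4 libraries, as points with exact 95% counting intervals, each panel on its own axis from 0. Tbx2 and Tbx4 are below 1 CPM in both Trp53-null libraries, Tbx5 is highest in WT, and Tbx15 is level.

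Tbx15, which patterns dermis, adipose depots and the shoulder blade, was the most abundant member and had almost the same level in all 4 cultures (chromosome 3, 99240381 to 99354259, plus strand). WT and Zfp871-/- gave 2245 counts each, Trp53-/- gave 2571 and the double null 2769. After scaling these were 118.9, 119.1, 117.6 and 119.2 normalized CPM, so that no library was high or low. No pair of the 5 differed beyond counting error, the widest ratio being 0.02 (-0.06 to 0.10). The terms of the edgeR quasi-likelihood test were -0.01 for Trp53 (SE 0.101, Benjamini-Hochberg adjusted p 0.970) and 0.01 for Zfp871 (SE 0.101, adjusted p 0.989). With total counts in place of TMM the ratios of Trp53 loss turned to 0.07 and 0.14, close to the shift of the median of all genes under that scaling, 0.09 and 0.14.

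Tbx18, the sister gene of Tbx15 known from somites, epicardium and ureter, varied more (chromosome 9, 87702800 to 87731260, minus strand). WT gave 494 Tbx18 counts, Zfp871-/- 365, Trp53-/- 513 and the double null 712. The double null was the high library and Zfp871-/- the low one, the reverse of Tbx3. Zfp871 loss gave -0.43 (-0.63 to -0.24) on the log2 scale in cells with Trp53 and 0.38 (0.22 to 0.55) in cells lacking it. Trp53 loss gave -0.16 (-0.34 to 0.02) in the presence of Zfp871 and 0.66 (0.48 to 0.85) in its absence. Neither term of the edgeR quasi-likelihood test passed, with 0.25 for Trp53 (SE 0.240, Benjamini-Hochberg adjusted p 0.530) and -0.02 for Zfp871 (SE 0.240, adjusted p 0.992). Tbx18 shares 970 exon bases with D030062O11Rik on the opposite strand, which had 27 to 37 counts. No strand setting is stated, so the counts of both are uncertain.

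Tbx1, the pharyngeal arch gene, was the only tested member with its lowest level in WT (chromosome 16, 18580979 to 18590671, minus strand). WT gave 20 Tbx1 counts, Zfp871-/- 53, Trp53-/- 83 and the double null 87. WT was low, Zfp871-/- was intermediate, and both Trp53-null libraries were alike, with a log2 ratio of -0.02 (-0.47 to 0.43) between them. The log2 ratio to WT was 1.33 (0.64 to 2.23) in Zfp871-/- and 1.75 (1.12 to 2.63) in Trp53-/-. The double null was not distinguishable from Zfp871-/- by counting error (0.40, -0.10 to 0.93). The Trp53 term of the edgeR quasi-likelihood test was 1.07 (SE 0.468, Benjamini-Hochberg adjusted p 0.212).

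The heart factor Tbx20 and the palate factor Tbx22 were at or near the floor. Tbx20 (chromosome 9, 24718138 to 24774303) had 17, 27, 5 and 15 counts in WT, Zfp871-/-, Trp53-/- and the double null. With Trp53 loss its log2 ratio was -1.62 (-3.77 to -0.48) in Trp53-/- against WT and -1.04 (-2.17 to -0.19) in the double null against Zfp871-/-, at least 2-fold lower in both. With Zfp871 loss it was 0.62 (-0.26 to 1.64) against WT and 1.19 (-0.04 to 3.31) against Trp53-/-, not beyond counting error. Both Trp53-null libraries were below both others, but the double null did not differ from WT beyond counting error (-0.43, -1.58 to 0.61). Tbx22 (chromosome X, 107667964 to 107688978) had 0 counts in each library. As a one-sided limit a count of 0 allows up to 3 counts, or 0.129 to 0.159 normalized CPM in these libraries, so no fold is given. Of the T-box genes that are not members, Mga had 2177 to 2789 counts and log2 ratios of -0.08 to 0.14 over the 5 pairs. Eomes had 2, 12, 32 and 40 counts, and Tbx6, Tbx21 and Tbr1 had at most 10 counts in a library.

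Members at least 2-fold apart were counted in 5 pairs of libraries, of which 3 include WT. The pair of Trp53-/- and Zfp871-/- was not among them. At least 2-fold above WT were 1 of the 7 tested members in Zfp871-/- (Tbx1), 1 in Trp53-/- and 1 in the double null, beside 3.52%, 8.9% and 8.79% of all genes tested. At least 2-fold below WT were 2 in Zfp871-/- (Tbx4 and Tbx5), 3 in Trp53-/- (Tbx2, Tbx4 and Tbx5) and the same 3 in the double null, beside 3.97%, 8.88% and 9.22% of all genes. In the double null against Zfp871-/-, where WT plays no part, 3 were at least 2-fold lower (Tbx2, Tbx3 and Tbx4) and 0 higher, beside 6.33% and 5.51%. In the double null against Trp53-/- no tested member reached 2-fold, where 1.01% of all genes were lower and 0.819% higher. Counting intervals exclude an equal level for 6 of the 7 in Zfp871-/- against WT, 5 in Trp53-/- against WT, 6 in the double null against WT, 5 in the double null against Zfp871-/- and 2 in the double null against Trp53-/-. The same holds for 55%, 68.7%, 70.5%, 64.5% and 36.5% of all genes tested, so such an interval is common in these libraries. Of the tested members 2, Tbx2 and Tbx4, were at least 2-fold lower with Trp53 loss in both backgrounds, beside 4.58% of all genes tested. Tbx20, which was not tested, also was.

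**Figure D4:**
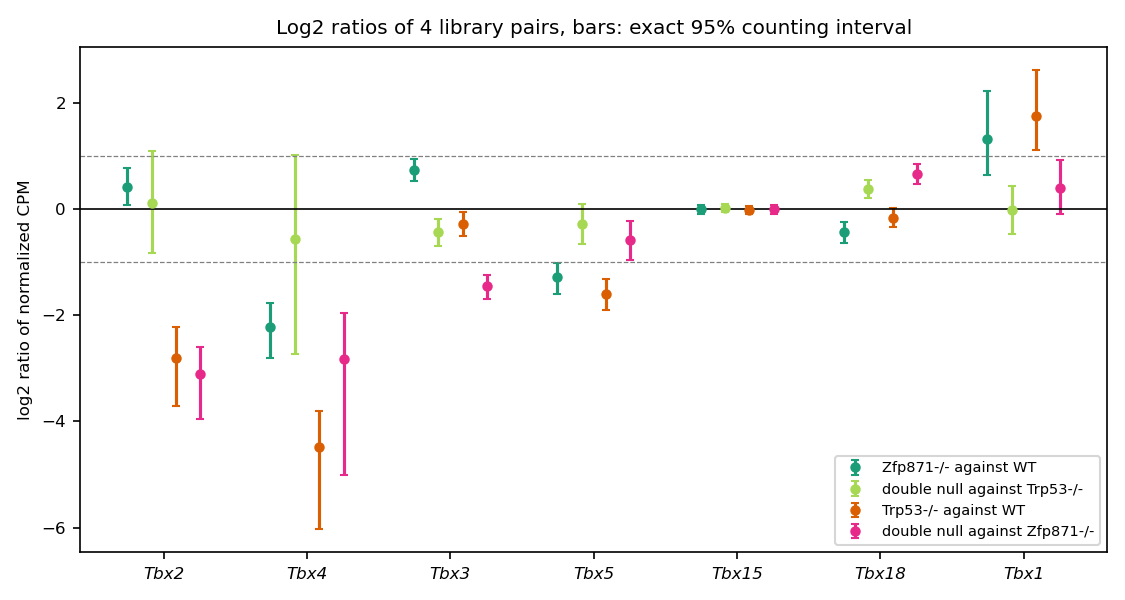
Log2 ratios of normalized CPM in 4 pairs of libraries for the 7 tested T-box genes, with exact 95% counting intervals and dashed lines at a 2-fold difference. Tbx2 and Tbx4 lie below -2 in both pairs of Trp53 loss, Tbx15 lies at 0 in all pairs, and the pairs of Zfp871 loss lie on opposite sides of 0 for Tbx3 and Tbx18.

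For Zfp871 loss over both backgrounds 0 members and 0 of the 13306 genes passed after Benjamini-Hochberg adjustment (edgeR quasi-likelihood test). At an unadjusted p under 0.05 there were 505 genes (3.8%), and Tbx4 was the only one of the members. DESeq2 called 3 genes higher and 5 lower and limma-voom 0, with 0 members among them.

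The partner genes of the T-box factors in limb, head and body wall were taken as lists. Of 17 tested genes of limb bud outgrowth 2 fell with Trp53 loss and 0 rose in the edgeR quasi-likelihood test, beside 4.28% and 4.96% of all genes. These were Hand2, which sets the posterior limb domain and acts in the heart, and Lmx1b, which sets the dorsal limb. Hand2 had 163, 121, 46 and 53 counts in WT, Zfp871-/-, Trp53-/- and the double null, and Lmx1b had 156, 155, 15 and 38. In both genes the Trp53-null libraries were below the others, as in Tbx2. The share of all genes that divide this way was not counted. On the log2 scale Hand2 fell by 1.76 (SE 0.303) and Lmx1b fell by 2.90 (SE 0.427), with Benjamini-Hochberg adjusted p of 0.0447 and 0.0357 from edgeR. Msx2, an outgrowth gene under BMP control, had 245, 50, 13 and 23 counts and was not called. Lhx2, the tested gene of this list with the widest range, was high in WT alone, with 421, 22, 19 and 14 counts. Msx1 had 549, 166, 64 and 102 counts, and neither Lhx2 nor Msx1 was called. The median log2 ratio of this list was -0.31 in Trp53-/- against WT and -0.62 in the double null against Zfp871-/-.

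Other genes that divide forelimb from hindlimb had other orders of libraries than Tbx4 and Tbx5, though Pitx1 was also lower in both Trp53-null libraries. Pitx1, the hindlimb homeobox gene that acts upstream of Tbx4, gave 81 counts from WT, 131 from Zfp871-/-, 17 from Trp53-/- and 65 from the double null. It was lowest in Trp53-/-, with the double null between that library and WT, so both Trp53-null libraries were below both others. The log2 ratio of Pitx1 was -2.33 in Trp53-/- against WT and -1.28 in the double null against Zfp871-/-. At least 2-fold lower in both these pairs were 4.58% of all genes tested. Pitx1 was not called for Trp53 loss (-1.82, SE 0.411, Benjamini-Hochberg adjusted p 0.0702 from edgeR). Hoxc10 and Hoxc11, posterior Hox genes of the hindlimb, were lowest in WT, with 79 and 4 counts, and had 304 to 406 and 66 to 101 counts in the Trp53-null libraries. Hoxc4 and Hoxc5, anterior Hox genes of the forelimb, were also lowest in WT, with 27 and 54 counts against 155 to 219 and 155 to 274 elsewhere, whereas Tbx5 was highest there. None of the 4 tested genes of either list was called for Trp53 loss.

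Of 14 tested genes of the pharyngeal arches and palate, 1 fell and 0 rose with Trp53 loss, beside 4.28% and 4.96% of all genes. Barx1, a homeobox gene of jaw and stomach mesenchyme, had 189, 111, 21 and 21 counts and fell by 3.04 on the log2 scale (SE 0.348, Benjamini-Hochberg adjusted p 0.0257, edgeR quasi-likelihood test). Like Tbx2 and Tbx4, it passed the filter on low counts only through the libraries with intact Trp53. Six2, which keeps progenitors in kidney and palate, had 425, 110, 28 and 44 counts and was not called. In this list 7 of 14 genes lay at least 2-fold below WT in Zfp871-/- and 7 of 14 in Trp53-/-, beside 3.97% and 8.88% of all genes, and both counts share the WT library. Tbx1 lay on the other side in these pairs. In the list of dermis and shoulder blade genes around Tbx15 and Tbx18, 0 of 12 were called. There En1, the ventral ectoderm and dermis gene, ran from 230 counts in WT to 1167 in Trp53-/-, and Alx1, a head mesenchyme gene, from 162 to 19.

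**Figure D5:**
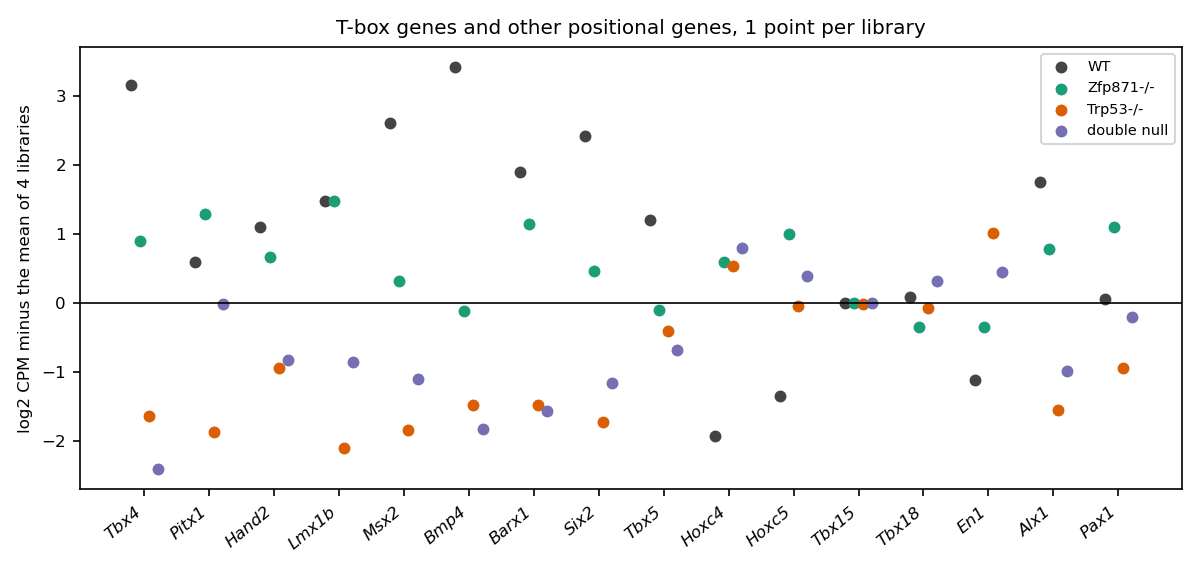
Log2 CPM minus the mean of the 4 libraries for 4 T-box genes and 12 other positional genes, with 1 point per library. Both Trp53-null libraries lie below both others for Tbx4, Pitx1, Hand2, Lmx1b, Msx2, Bmp4, Barx1, Six2, Alx1, Pax1 and Tbx5. Tbx5 has WT well above the rest, Hoxc4 and Hoxc5 have WT alone below, and the points of Tbx15 coincide.

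Genes known to be repressed by Tbx2 or Tbx3 did not move in a common direction where Tbx2 fell. Of 7 tested, 2 rose with Trp53 loss and 1 fell in the edgeR quasi-likelihood test, beside 4.96% and 4.28% of all genes. Cdkn2a, the locus of the p16 and p19Arf inhibitors, and Ndrg1, a stress-response gene, rose by 2.20 (SE 0.325) and 1.04 (SE 0.121) on the log2 scale, with Benjamini-Hochberg adjusted p of 0.0357 and 0.0258 in that edgeR test. Ndrg1 had 509, 465, 1173 and 1218 counts. Cdkn1a, the cell-cycle inhibitor p21, is itself a p53 target and fell, from 13979 and 13103 counts to 341 in each Trp53-null library. Cdh1, the epithelial cadherin, had at most 15 counts. Of 11 tested cofactors, among them the Groucho corepressors Tle1 to Tle4, histone deacetylases, Yap1 and Wwtr1, 0 were called for Trp53 loss, with a median log2 ratio of -0.01 in Trp53-/- against WT.

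Signals upstream of the members were followed as BMP and retinoic acid genes, of which 15 were tested, 2 fell and 0 rose with Trp53 loss, beside 4.28% and 4.96% of all genes. Rarg, a retinoic acid receptor of skin and cartilage, fell by 1.06 (SE 0.177) and Smad6, an inhibitor of BMP signalling, fell by 1.06 (SE 0.150), with Benjamini-Hochberg adjusted p of 0.0424 and 0.0341 in the edgeR quasi-likelihood test. Bmp4, a BMP ligand known to induce Tbx2 and Tbx3, gave 2303 counts from WT, 198 from Zfp871-/-, 90 from Trp53-/- and 75 from the double null. WT was high and the others low, the order seen in Tbx4 and Tbx5 and not in Tbx2 or Tbx3. Its Trp53 term of -3.41 (SE 0.865) missed the threshold, at a Benjamini-Hochberg adjusted p of 0.0864 from edgeR.

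Markers of other tissues differed between the same libraries. The summed level of 12 cartilage genes was 1330 normalized CPM for WT, 522 for Zfp871-/-, 140 for Trp53-/- and 202 for the double null. This places WT first and Zfp871-/- second as for Tbx4 and Tbx5. Most of the WT sum came from Col2a1 and Col11a1, cartilage collagen genes, with 11633, 558, 25 and 50 counts and 10392, 8249, 2214 and 3591. Acan, the aggrecan gene of cartilage matrix, had 1919, 166, 100 and 180 counts and Col9a1 had 74, 3, 0 and 0. Other genes of the list did not follow this order. Sox9 varied little, with 798, 771, 654 and 774 counts, and Matn3 was highest in the double null, with 12, 24, 10 and 33. Of the 12 genes 7 were tested and 2 fell with Trp53 loss (Col11a1 and Col9a3), beside 4.28% of all genes, and Col9a3 reached 1 CPM only with intact Trp53. Matn1 had 0 counts in all libraries but Zfp871-/-, and 1, 1, 3 and 2 of the 12 genes were at 0. The 12 macrophage genes summed to 74.2, 84.9, 1031 and 933 normalized CPM, and 12 of 12 rose with Trp53 loss, beside 4.96% of all genes. Of these Tyrobp reached 1 CPM only in the Trp53-null libraries. The 6 mesothelium genes summed to 13.5, 38.2, 21.9 and 18.2, and the 8 endothelium genes to 14.7, 27.4, 21.6 and 23.2. The part of these cell types in the levels of the T-box genes was not tested. The 12 fibroblast genes summed to 46994 and 48276 normalized CPM in WT and Zfp871-/- and to 39408 and 35056 in the Trp53-null libraries. The genes did not move together. Of the 12, 1 fell with Trp53 loss, Col3a1 (edgeR quasi-likelihood test, Benjamini-Hochberg adjusted p 0.0432), and 0 rose, beside 4.28% and 4.96% of all genes. In Trp53-/- against WT 4 were at least 2-fold higher (Thy1, Dcn, Pdgfra and Postn) and 0 lower, beside 8.9% and 8.88%. In the double null against Zfp871-/- 0 reached 2-fold either way.

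The genes whose profile over the 4 libraries was most like that of a member were listed as a description, by the distance between log2 CPM profiles centred on their means, among 12383 protein-coding genes. For Tbx4 they were Arsi, a sulfatase gene (distance 0.148), Eln, which encodes elastin (0.275), and Cacna2d3, a calcium channel subunit gene (0.295). For Tbx2 they were Zfp423, a zinc finger factor of adipocyte precursors (0.201), Mctp2 (0.234) and Igsf9b (0.273). Zfp423 had 64, 99, 10 and 13 counts. For Tbx5 they were Car5b, Tnfrsf19 and Svep1, and for Tbx1 Adora2b, Bhlhe41 and Ubash3b. Tbx15 and Tbx18 had their nearest genes among widely expressed ones, Nck2, Aldh9a1 and Pafah1b1 for Tbx15 and Mrps36, Ndufc1 and Gtf2a2 for Tbx18. With only 4 libraries many genes lie close to any profile.

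Among the 21 pairs of tested members, Tbx15 and Tbx18 had the closest profiles (distance 0.478), and Tbx1 and Tbx4 the most distant ones (5.37). The neighbours Tbx3 and Tbx5 ranked 5 of 21 (1.45) and the neighbours Tbx2 and Tbx4 ranked 10 (2.05). The sister genes Tbx2 and Tbx3 ranked 11 (2.14) and Tbx4 and Tbx5 ranked 13 (2.66). Over all 21 pairs, only Tbx15 and Tbx18 among these couples stood first. The neighbours Tbx2 and Tbx4 were nonetheless each other's nearest member. The neighbours Tbx3 and Tbx5 were each nearer to Tbx15, which was almost level, than to each other. Genes that vary little between libraries lie close together by this distance, so the ranks also reflect how much each gene varied.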

How the data were processed

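The authors deposited raw counts per Ensembl gene for 4 libraries, and per the submitters' processing notes the tools were fastp, STAR and featureCounts with mm10. Tool versions, strand setting and annotation release are not stated there. The deposited value per library has no unit in its header and was read as FPKM of the authors, because over 9876 genes it is the count over a gene-specific length and a library-specific factor (0.864 for Trp53-/- relative to WT). FPKM served for levels between genes. Symbols and coordinates came from GENCODE M21 (GRCm38/mm10), which held 54495 of the 54532 IDs.

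Counts were scaled with TMM (edgeR 4.0.16, R 4.3.3) after keeping genes with at least 1 CPM in at least 2 libraries. The edgeR quasi-likelihood test used the additive model with Benjamini-Hochberg adjustment; DESeq2 1.42.0 and limma-voom (limma 3.58.1) were alternatives, and the test was checked on simulated data. The members and lists were chosen with earlier results of these data known. The rule for named genes took the members, list genes past the test, up to 4 per list by their range over the libraries, the 3 nearest profiles of each member, and neighbouring genes; the nearest profiles of Tbx3 are not reported here. Tbx6, Tbx21, Tbr1, Cdh1, Gata4, Nkx2-5, Col9a1, Matn1, Matn3, Sox9 and the untested muscle genes fall outside it and were chosen after their values were seen. Lists of heart, epicardium, epithelium, muscle and neural genes are given in the closing section. P-values rest on the departure from the additive model, with 1 library per genotype, and measure no spread between cultures of a genotype.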

Additional observations from a re-analysis of the deposited data

Results flagged for a closer look

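Tbx3 and Tbx18 were flagged because Zfp871 loss went in opposite directions in the Trp53-intact and the Trp53-null background, with counting intervals that exclude an equal level in each. For Tbx3 the log2 ratio was 0.735 with Trp53 and -0.438 without it, a difference of -1.173. For Tbx18 it was -0.432 with Trp53 and 0.383 without it, a difference of 0.815. With 1 library per genotype the difference between backgrounds was not tested, and the same holds for 9.51% of all genes.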

How the results depend on the processing

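Tbx2 and Tbx4 fell with Trp53 loss under all 5 alternatives (DESeq2 size factors, total counts, no filter on low counts, DESeq2 and limma-voom), and no called result changed direction. Among uncalled values near 0 the sign turned for Tbx15 and, with limma-voom, for the Zfp871 term of Tbx18 (0.03 in place of -0.02). With no filter on low counts 1242 genes rose and 1315 fell with Trp53 loss in place of 660 and 570, and Tbx5 also fell, which makes 3 members. Total counts gave 867 that rose and 423 that fell. For Zfp871 loss no filter gave 2 genes that rose and 6 that fell, and DESeq2 gave 3 and 5, in place of 0. With no filter Tbx20 adds 1 member to 3 counts of at least 2-fold differences: lower in Trp53-/- against WT (4 in place of 3), lower in the double null against Zfp871-/- (4 in place of 3), and higher in the double null against Trp53-/- (1 in place of 0), where its counting interval includes an equal level. Total counts moved the ratios of Tbx15 outside their counting intervals, to 0.07 in Trp53-/- against WT, 0.14 in the double null against Zfp871-/- and 0.09 in the double null against WT. At least 2-fold lower with Trp53 loss in both backgrounds were 2 tested members, Tbx2 and Tbx4. Leaving out WT or Zfp871-/-, an alternative chosen after seeing the data, leaves 1 background, so the count is then of a single pair. It was 3 without WT (Tbx2, Tbx3 and Tbx4) and 3 without Zfp871-/- (Tbx2, Tbx4 and Tbx5). No paired analysis was possible because the labels give no replicate numbers and each genotype has 1 library; leaving a library out of the additive model leaves no residual degree of freedom. Depth limits Tbx20, Tbx22 and the Trp53-null values of Tbx2 and Tbx4, which rest on 0 to 27 counts.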

Other observations

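Heart genes other than Tbx5 and Tbx20 were mostly silent: of 16, 5 were tested, and among these 1, Hand2, fell and 0 rose with Trp53 loss, beside 4.28% and 4.96% of all genes. Gata4, a partner of Tbx5 and Tbx20, had 13, 11, 47 and 2 counts in WT, Zfp871-/-, Trp53-/- and the double null, and Nkx2-5 had 0, 0, 0 and 3. Tnnt2, a troponin gene of heart muscle, had 84, 231, 417 and 312 counts and was not called. Of the 10 tested epicardium and mesothelium genes, a tissue where Tbx18 is known to act, 0 were called, 9 were at least 2-fold higher in Zfp871-/- than in WT and 8 were at least 2-fold lower in the double null than in Zfp871-/-. Beside this, 3.52% and 6.33% of all genes tested were, and both counts share the Zfp871-/- library. Tbx18 was lowest in Zfp871-/-, with 365 counts. The 8 epithelium genes summed to 2.01, 7.06, 7.32 and 2.50 normalized CPM, the 9 skeletal muscle genes to 4.18, 9.02, 1.60 and 3.14, the 8 heart muscle genes to 4.92, 12.8, 19.3 and 14.03, and the 10 neural genes to 67.7, 100.1, 98.4 and 96.8.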
